A study of Mus musculus with 8 samples.

Results

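The genes examined here encode the enzymes and transporters of glycolysis and lactate export, the enzymes of the pentose phosphate pathway, and components and targets of the hypoxia response. They were followed in regulatory T cells (Tregs) from mice labelled as lacking the transcriptional repressor Bcl6 and from wild-type mice. The list held 35 gene symbols, and a gene was measured where the array annotated a probe set to that symbol and to no other. Where a gene had several such sets, the set with the highest mean over the 8 arrays was used. This gave 30 measured genes of 19937 tested over the whole array: 19 of glycolysis and lactate, 5 of the pentose phosphate pathway and 6 of the hypoxia response. Gpi1, Eno1 and G6pdx had no matching set, Gapdh had only sets shared with other genes, and Pkm2 is an older symbol of Pkm, which was measured. The KO group held 4 arrays of FoxP3+ Tregs from mice labelled as Bcl6 knock-out, and the WT group 4 arrays of FoxP3+ Tregs from wild-type mice. All cells had received antibodies to CD3 and CD28 for 16 h before 100 ng of total RNA was labelled without prior removal of ribosomal RNA. In each group preparation 1 was run as arrays 1A and 1B, and preparation 2 as arrays 2A and 2B. The labels give no age, no strain, no description of the deleted part of Bcl6, and no statement that preparations or letters were separate mice. The p-values therefore reflect the scatter among these samples only, and that scatter may be technical.

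Glycolysis splits glucose into pyruvate in the cytosol, and lactate dehydrogenase and the monocarboxylate transporters turn pyruvate into lactate and move it across the membrane. The pentose phosphate pathway branches off glucose 6-phosphate and supplies NADPH and ribose for nucleotides. Hypoxia-inducible factor, whose oxygen-regulated subunit is encoded by Hif1a, switches on many glycolytic genes, and the prolyl hydroxylases encoded by Egln1 and Egln3 mark that subunit for degradation. T cells take up more glucose when they are activated through the T cell receptor and CD28, and Tregs are known to depend on glycolysis less than effector T cells do. In helper T cells BCL6 has been described as a repressor of glycolytic genes.

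The arrays differed in ways that touch every value below. Bcl6 itself had log2 levels of 9.0 and 8.82 in KO 1 and 8.54 and 8.51 in KO 2, against 7.97 and 8.36 in WT 1 and 8.33 and 7.86 in WT 2. Every KO array thus lay above every WT array for the targeted gene, and the difference of 0.59 (SE 0.29) had an adjusted p of 0.701 in limma. Where the probes lie relative to the deleted part is not known here, so no check of the labels comes from this level, and KO means labelled KO throughout. Over the whole array the log2 values had an SD of 1.84 and 1.87 in the KO 1 arrays, 1.61 and 1.65 in the KO 2 arrays and 1.56 to 1.70 in the WT arrays. The 7 Treg and T cell markers examined, Foxp3 among them, had log2 levels between 8.96 and 12.09, with a mean of 10.58 to 11.32 in KO arrays and 9.83 to 10.59 in WT arrays. The 12 measured markers of CD8, B, myeloid, NK and erythroid cells had levels between 4.35 and 8.22, with a mean of 6.06 to 6.30 in KO arrays and 6.07 to 6.30 in WT arrays. The part of these marker levels in the results was not tested. Averaged over Eif2s3y, Kdm5d and Uty, all Y-linked, the level was 4.62 to 4.80 in KO arrays and 6.94 to 8.30 in WT arrays, so whatever difference between the mice this marks cannot be told apart from the genotype label.

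Most of the pathway genes had higher levels in KO than in WT Tregs, and most of the excess came from preparation KO 1. Over the 30 genes the median log2 difference, KO minus WT, was 0.59, against -0.063 over all genes. It was 1.0 for KO 1 minus WT and 0.23 for KO 2 minus WT, against -0.13 and 0.020 over all genes. Both differences use the same 4 WT arrays and are therefore not independent of each other. The difference was above 0 in 24 of the 30 genes (80%), against 43.2% of all genes. Over all genes the median difference varied with the mean log2 level. It was -0.0078 at 7 to 8, 0.34 at 8 to 9 and 0.44 at 9 to 10. At 10 to 11 it was 0.48, and above 11 it was 0.26. In the same order, the medians of the 30 genes were 0.15, 0.49, 0.83, 0.72 and 0.67. In 13 genes all 4 KO arrays lay above all 4 WT arrays, a pattern shown by 6.67% of all genes, and in 1 gene, Ldhb, all lay below, as in 2.11% of all genes. The groups overlapped in the other 16. At the levels where the 30 genes lay, all KO arrays were above all WT arrays in 7.69% to 20.4% of all genes, as given below. By pathway, all KO arrays lay above all WT arrays in 9 of 19 genes of glycolysis and lactate, 2 of 5 of the pentose phosphate pathway and 2 of 6 of the hypoxia response. No single gene of the set passed the test: limma called 0 of the 30 at an adjusted p under 0.05, beside 0.135% of all genes, and the lowest adjusted p was 0.186, that of Egln3. Without adjustment 14 of the 30 had a p under 0.05 with KO higher, beside 5.65% of all genes, and 0 with KO lower. As these are bulk samples, more RNA of a gene per cell and more cells that express it cannot be told apart.

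**Figure D1:**
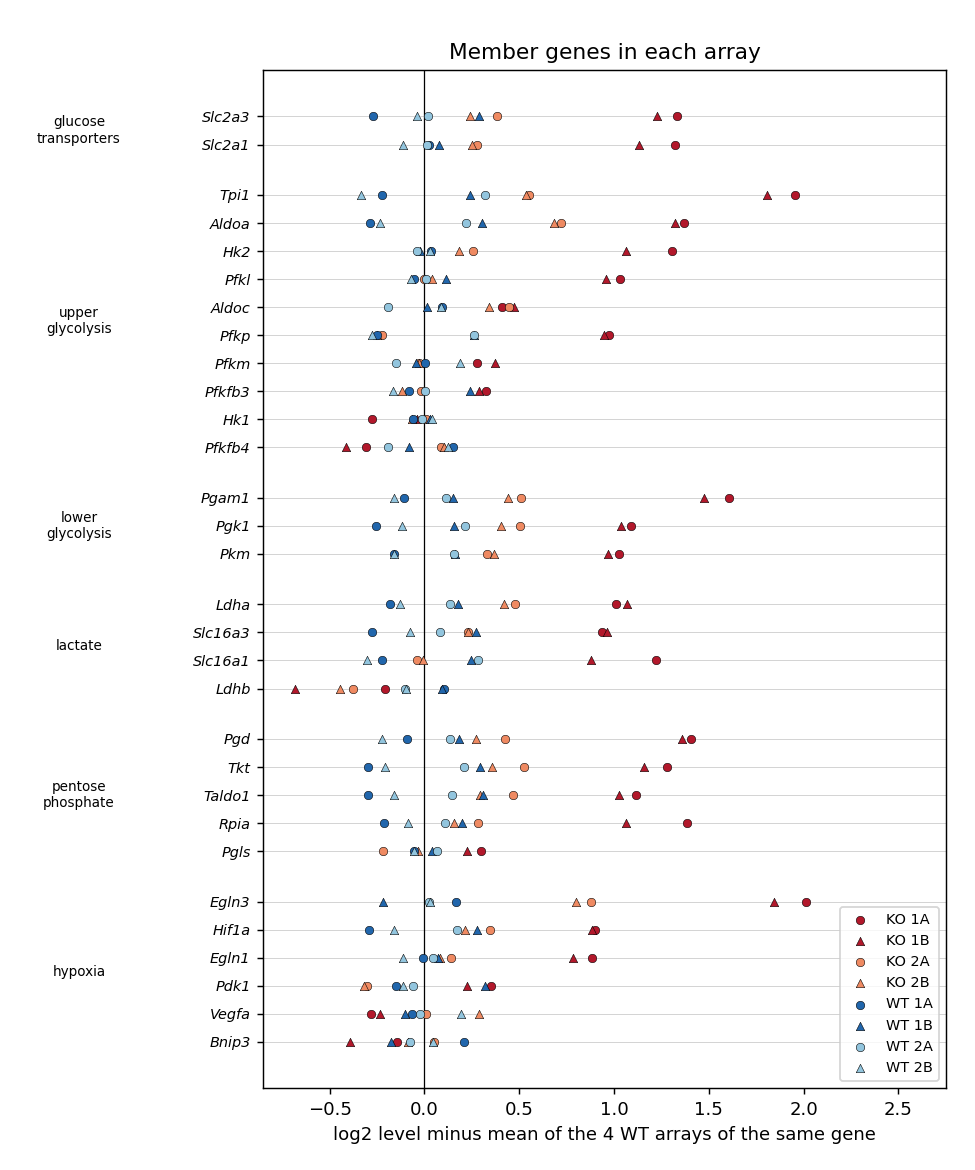
Each row is 1 of the 30 genes, grouped by role, and each point 1 array, plotted as its log2 level minus the mean of the 4 WT arrays for that gene. The KO 1 points of most genes lie to the right of all others, with the KO 2 points between them and the WT points or among the WT points.

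By array, the median of the 30 genes relative to the WT mean was 1.02 and 0.96 in KO 1 (A, then B) and 0.27 and 0.22 in KO 2, against -0.10 and 0.16 in WT 1 and 0.055 and -0.11 in WT 2. The 4 KO arrays were thus above the 4 WT arrays, but KO 2B exceeded WT 1B by far less than KO 1 exceeded KO 2. The same order held for glycolysis and lactate, with 1.02 and 0.96 in KO 1 and 0.26 and 0.23 in KO 2, against -0.11 and 0.16 in WT 1 and 0.021 and -0.12 in WT 2. The pentose phosphate genes had medians of 1.28 and 1.06 in KO 1 and 0.43 and 0.27 in KO 2, against -0.22 and 0.20 in WT 1 and 0.14 and -0.16 in WT 2. The hypoxia genes had medians of 0.62 and 0.50 in KO 1 and 0.095 and 0.15 in KO 2, against -0.037 and -0.015 in WT 1 and 0.0015 and -0.041 in WT 2.

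Glucose enters T cells mainly through the transporters Slc2a1 and Slc2a3. Slc2a1 had log2 levels of 9.78 and 9.60 in KO 1 and 8.74 and 8.71 in KO 2, against 8.49 and 8.54 in WT 1 and 8.48 and 8.35 in WT 2. All KO arrays lay above all WT arrays, KO 1 by about 1 log2 unit and KO 2 narrowly. KO minus WT came to 0.75 (SE 0.30, adjusted p = 0.701), and it was 1.23 in KO 1 and 0.26 in KO 2. Slc2a3 had 10.02 and 9.92 in KO 1 and 9.07 and 8.93 in KO 2, against 8.42 and 8.98 in WT 1 and 8.71 and 8.65 in WT 2. The KO 1 arrays stood clear of the rest, while KO 2B lay just under WT 1B, so that the groups overlapped. Slc2a3 differed by 0.80 (SE 0.34, adjusted p = 0.701), by 1.28 in KO 1 and by 0.31 in KO 2.

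The upper steps of glycolysis, which trap glucose in the cell and split it into triose phosphates, had a median difference of 0.39 over 10 genes, with 0.70 in KO 1 and 0.057 in KO 2. Quantile normalization brought these values to 0.20 for the group, 0.38 for KO 1 and 0.025 for KO 2. Triose phosphate isomerase, encoded by Tpi1, had log2 levels of 10.93 and 10.78 in KO 1 and 9.53 and 9.51 in KO 2, against 8.75 and 9.22 in WT 1 and 9.30 and 8.64 in WT 2. Its groups did not overlap, and the WT arrays themselves split into 1B and 2A at the higher level and 1A and 2B at the lower. Tpi1 averaged 10.19 ± 0.77 in KO arrays and 8.98 ± 0.33 in WT arrays (SD, n = 4 each), a 2.32-fold difference of 1.21 log2 (SE 0.42) with an adjusted p of 0.600. Aldoa, the main aldolase of T cells, reached 12.09 and 12.04 in KO 1 and 11.44 and 11.40 in KO 2, against 10.43 and 11.02 in WT 1 and 10.94 and 10.48 in WT 2. Here KO 2 stood well clear of WT. KO exceeded WT by 1.02 (SE 0.36, adjusted p = 0.617): by 1.35 in KO 1 and by 0.70 in KO 2. Hk2, the inducible hexokinase of activated T cells, had 8.72 and 8.48 in KO 1 and 7.67 and 7.60 in KO 2, against 7.45 and 7.39 in WT 1 and 7.38 and 7.45 in WT 2. The WT arrays were within a narrow band that KO 2 exceeded slightly and KO 1 widely, for a difference of 0.70 (SE 0.29, adjusted p = 0.701).

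Phosphofructokinase commits sugar to glycolysis, and 2 of its 3 isoform genes, Pfkl and Pfkp, differed between the KO preparations (adjusted p = 0.00133 and 0.00311 for KO 1 minus KO 2). The liver-type gene Pfkl exceeded WT by 1.0 in KO 1 and by 0.019 in KO 2. Pfkp, the platelet-type gene, was 0.96 above WT in KO 1, while its KO 2 value was -0.24 relative to WT. In the muscle-type gene Pfkm the differences were 0.32 and -0.029. None of the 3 separated the groups. Pfkfb3 and Pfkfb4 make and remove the sugar bisphosphate that activates phosphofructokinase, and their KO minus WT differences were 0.12 and -0.13 with overlapping groups. After quantile normalization the differences of Pfkm and Pfkfb3 were -0.0023 and -0.054. In Aldoc, another aldolase, both KO preparations lay above WT by like amounts, 0.44 in KO 1 and 0.39 in KO 2, with all KO arrays above all WT arrays. Hk1, the constitutive hexokinase, had a difference of -0.093 in the probe set chosen by the rule, which the annotation ties to a single transcript accession. Its other set, tied to 8 accessions, had a difference of 0.54, with 0.88 in KO 1, 0.19 in KO 2 and no overlap between the groups, so the value of Hk1 depends on the set. The chosen set's levels, 12.81 to 13.13, lay within those of the 16 sets annotated to both Hk1 and Rpl17, a ribosomal protein gene, 11.54 to 13.40. It may therefore not measure Hk1, and every count over the 30 genes holds it under that name.

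The lower steps, which yield ATP and pyruvate, were represented by 3 genes, and in all 3 the KO arrays lay above the WT arrays. Phosphoglycerate kinase, encoded by the X-linked gene Pgk1, had log2 levels of 11.58 and 11.52 in KO 1 and 10.99 and 10.89 in KO 2, against 10.23 and 10.64 in WT 1 and 10.70 and 10.37 in WT 2. The lowest KO array, KO 2B, lay a little above the highest WT array, WT 2A. Pgk1 differed by 0.76 (SE 0.32, adjusted p = 0.701) and was 1.06 above WT in KO 1 but 0.45 in KO 2. Pgam1, phosphoglycerate mutase, had 10.24 and 10.11 in KO 1 and 9.14 and 9.07 in KO 2, against 8.52 and 8.78 in WT 1 and 8.75 and 8.47 in WT 2. It averaged 9.64 ± 0.62 in KO arrays and 8.63 ± 0.16 in WT arrays (SD, n = 4 each), 2.01 times the WT level on the linear scale, and the log2 difference of 1.01 (SE 0.33) had an adjusted p of 0.540. Pkm, the pyruvate kinase of most tissues outside liver and red cells, differed by 0.67, with 1.0 in KO 1 and 0.35 in KO 2. The several probe sets of Pgk1, Pgam1 and Pkm gave like differences, and 2 sets of Pgk1 and 2 of Pgam1 held the same values.

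**Figure D2:**
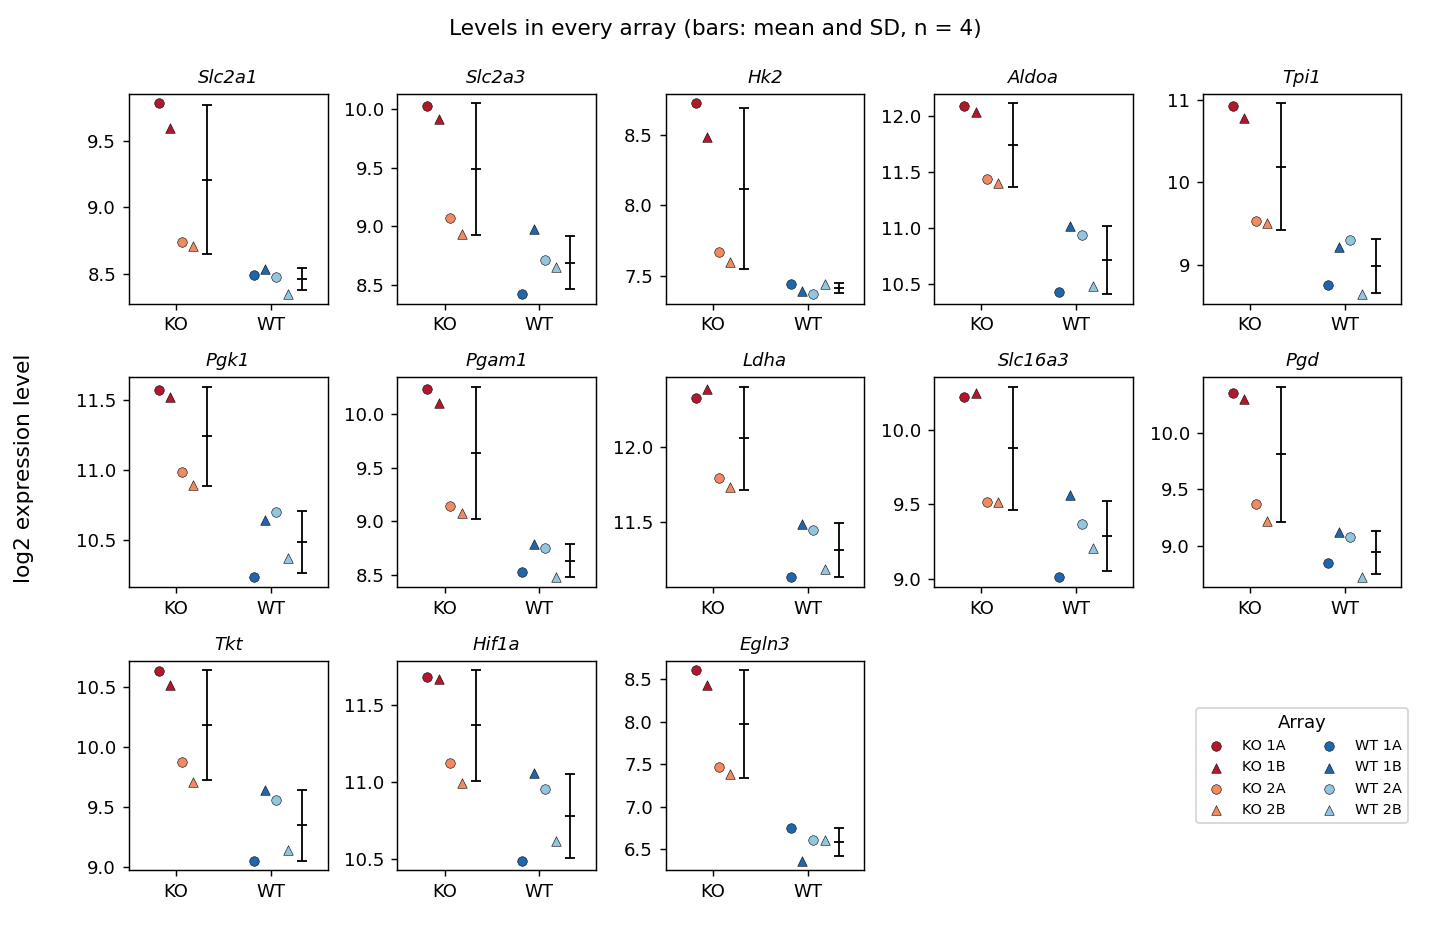
Each panel shows 1 gene, with the log2 level of every array on the vertical axis, KO arrays on the left and WT arrays on the right, and bars for the mean and SD of 4 arrays. KO 1 lies highest in all 13 panels, and in Slc2a3, Slc16a3 and Hif1a at least 1 KO 2 array lies below a WT array.

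The genes of lactate handling were not uniform. Ldha, the lactate dehydrogenase subunit that favours lactate formation, had log2 levels of 12.33 and 12.38 in KO 1 and 11.79 and 11.74 in KO 2, against 11.13 and 11.49 in WT 1 and 11.45 and 11.19 in WT 2. All KO arrays were above all WT arrays. The difference was 0.75 (SE 0.32, adjusted p = 0.701), 1.04 in KO 1 and 0.45 in KO 2. Ldhb, the subunit that favours the conversion of lactate to pyruvate, ran the other way, at 7.16 and 6.69 in KO 1 and 6.99 and 6.92 in KO 2, against 7.47 and 7.46 in WT 1 and 7.27 and 7.27 in WT 2. It was the only gene of the 30 with all KO arrays below all WT arrays, and both KO preparations showed it, with -0.45 in KO 1 and -0.41 in KO 2. The Ldhb difference of -0.43 (SE 0.23) had an adjusted p of 0.701, and a second set of the gene gave -0.23, also without overlap. After median centring the difference in the set used was -0.33 and its groups overlapped, so 0 of the 30 genes then had all KO arrays below all WT arrays. Slc16a3, the lactate exporter of glycolytic cells, had levels of 10.22 and 10.25 in KO 1 and 9.52 and 9.52 in KO 2, against 9.01 and 9.56 in WT 1 and 9.37 and 9.21 in WT 2. Both KO 2 arrays were below WT 1B, and the difference was 0.59 (SE 0.32, adjusted p = 0.701). Slc16a1, a transporter that carries lactate in either direction, was 1.05 above WT in KO 1 and -0.025 relative to WT in KO 2.

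In the pentose phosphate pathway all 5 measured genes had differences above 0, with a median of 0.73, or 1.22 in KO 1 and 0.35 in KO 2. Pgd, the dehydrogenase that forms NADPH and ribulose phosphate, had log2 levels of 10.35 and 10.30 in KO 1 and 9.37 and 9.22 in KO 2, against 8.85 and 9.12 in WT 1 and 9.08 and 8.72 in WT 2. The groups did not overlap, with KO 2B a little above WT 1B. Its difference was 0.87 (SE 0.33, adjusted p = 0.701). Tkt, the transketolase of the branch without oxidation, had 10.63 and 10.51 in KO 1 and 9.87 and 9.71 in KO 2, against 9.05 and 9.64 in WT 1 and 9.56 and 9.15 in WT 2. KO 2B and WT 1B were again neighbours, and the difference was 0.83 (SE 0.35, adjusted p = 0.701). Taldo1, the transaldolase of that branch, and Rpia, the ribose phosphate isomerase, differed by 0.73 and 0.72. Both had KO 2B below WT 1B, so their groups overlapped. Pgls, the lactonase between the dehydrogenases, had 0.26 in KO 1 and -0.13 in KO 2. Its KO minus WT value of 0.068 became -0.13 after quantile normalization.

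The hypoxia genes were the least uniform, with 3 of 6 differences above 0 and a median of 0.23, or 0.56 in KO 1 and 0.13 in KO 2. After quantile normalization the median was 0.15, and without array KO 2B it was 0.35. Egln3 had the largest difference of the 30 genes, with log2 levels of 8.60 and 8.43 in KO 1 and 7.46 and 7.38 in KO 2, against 6.75 and 6.37 in WT 1 and 6.61 and 6.61 in WT 2. Both KO preparations lay clearly above WT, KO 1 further than KO 2, while the WT arrays lay within 0.39 of each other. It averaged 7.97 ± 0.63 in KO arrays and 6.58 ± 0.16 in WT arrays (SD, n = 4 each), 2.61 times the WT level, and the log2 difference of 1.38 (SE 0.31) had an adjusted p of 0.186 in limma. After quantile normalization it reached 1.29 (SE 0.22, adjusted p = 0.0269), and Egln3 was then the 1 gene called among the 30, beside 0.787% of all genes. KO 2 minus WT was 0.84, a value from 1 KO preparation run as 2 arrays. Over 22 alternatives its adjusted p ranged from 2.28e-09, without KO 2, to 0.999, without WT 2, and it was below the threshold in 5. In 2 of the 5, without KO 1 and without KO 2, the KO group held a single preparation, so those p-values carry no spread between KO preparations. Another of the 5 had array SD as a covariate, where the estimated correlation within preparations was negative (-0.37). The difference ranged from 0.84 to 1.93 over the alternatives. As all KO arrays lay above all WT arrays, leaving out arrays could not bring it below 0. Changes of block or variance trend left the difference itself unchanged, so its sign in those settings is no further check.

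Egln1, the hydroxylase that sets the level of the factor in normal oxygen, differed by 0.47, with 0.83 in KO 1 and 0.11 in KO 2 and no overlap, although KO 2B and WT 1B were nearly equal. Hif1a itself had log2 levels of 11.68 and 11.67 in KO 1 and 11.13 and 10.99 in KO 2, against 10.49 and 11.06 in WT 1 and 10.95 and 10.62 in WT 2. The KO 1 arrays were well above the rest, and KO 2B lay below WT 1B, so the groups overlapped. Hif1a differed by 0.59 (SE 0.34, adjusted p = 0.701). The other 3 genes of this group had differences between -0.14 and -0.012 in the sets used. Pdk1, the kinase that shuts pyruvate dehydrogenase, was 0.29 above WT in KO 1 and -0.31 relative to WT in KO 2. Vegfa, the vascular growth factor, had -0.26 in KO 1 and 0.15 in KO 2. In Bnip3, a receptor for the removal of mitochondria, the values were -0.27 and -0.018. A second set of Bnip3 gave a larger difference of -0.34, with -0.59 in KO 1 and -0.098 in KO 2.

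**Figure D3:**
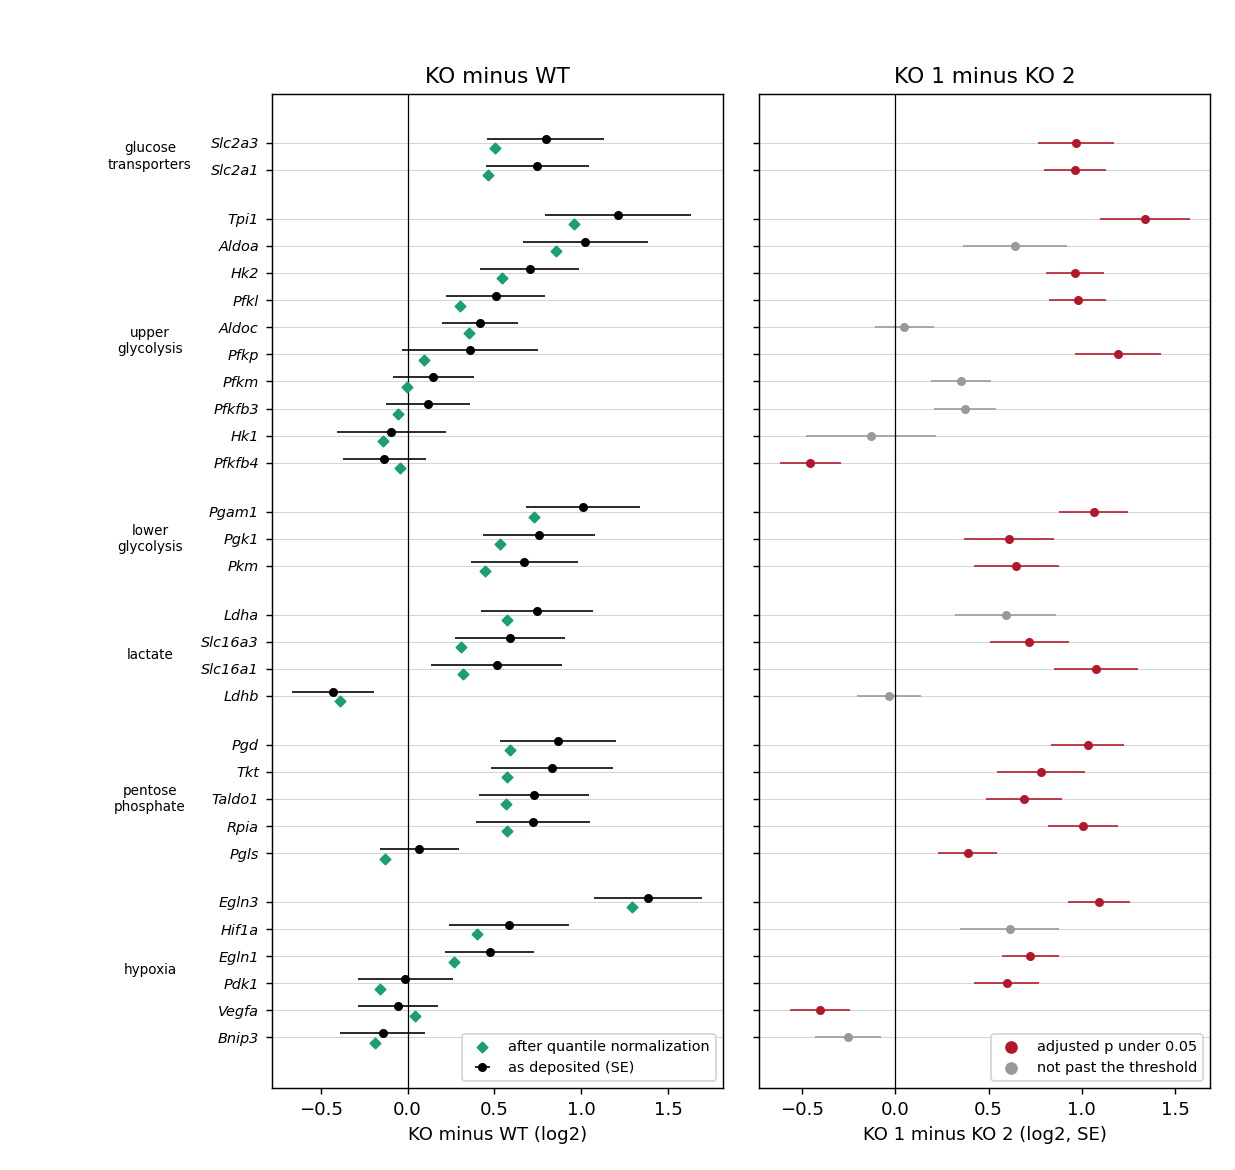
The left panel plots the log2 difference KO minus WT of each gene with its SE, and beside it the value after quantile normalization. The right panel plots KO 1 minus KO 2 with its SE, in red where the adjusted p was under 0.05, as in 19 genes above 0 and 2 below 0.

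The test that resolved differences in these genes was the one between the KO preparations. In a fit with 1 mean per preparation, whose residual is the spread between arrays A and B, 19 of the 30 genes were higher in KO 1 than in KO 2, beside 27.7% of all genes, and 2 were lower, beside 31% of all genes. The median of KO 1 minus KO 2 was 0.67 over the 30 genes and -0.13 over all genes. These all-gene values include genes of low level, whereas the 30 genes lay at a mean log2 level of 7 or above. Over all genes at 7 to 8, the median difference from WT was 0.023 in KO 1 and 0.019 in KO 2. At 8 to 9 it was 0.67 and 0.034, and at 9 to 10 it was 0.80 and 0.083. Tpi1 differed by 1.34 (adjusted p = 0.00238), Pfkp by 1.20 (adjusted p = 0.00311) and Egln3 by 1.09 (adjusted p = 0.00121). All 5 pentose phosphate genes and both glucose transporters were among those higher in KO 1. The 2 lower genes were Pfkfb4, at -0.46 (adjusted p = 0.0319), and Vegfa, at -0.40 (adjusted p = 0.0448). The 9 genes not called were Hk1, Pfkm, Pfkfb3, Aldoa, Aldoc, Ldha, Ldhb, Bnip3 and Hif1a, and Aldoc and Ldhb differed by only 0.048 and -0.033 between the KO preparations. After quantile normalization 11 genes were higher in KO 1, beside 13.5% of all genes, and none was lower. The split over all genes moved as well, with 5530 higher and 6184 lower as deposited, 2693 and 1045 after quantile normalization, and 7396 and 1654 after centring on medians. Without array KO 1A 3 genes of the 30 were called in either direction, Hk2, Pfkl and Egln3, beside 868 of all genes (4.35%). Without KO 1B the number was 12, beside 6387 (32%), without KO 2A 12, beside 5482 (27.5%), and without KO 2B 10, beside 2206 (11.1%). It was 26 without WT 1A, beside 14963 (75.1%), and 26 without WT 1B, beside 14970 (75.1%). Between WT 1 and WT 2 limma called 0 of the 30 genes and 0% of all genes. At an unadjusted p under 0.05 it gave 0 of the 30 and 210 of all genes. The closer WT arrays crossed the preparations, as given below, so these counts do not show that the WT arrays were alike. The median of WT 1 minus WT 2 over the 30 genes was 0.014, but 0.17 without WT 1A and -0.082 without WT 1B. The p-values of this fit compare the RNA preparations with each other and not the genotypes.

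The residual of that fit rests on pairs of arrays that were not equally close. The median absolute difference between arrays A and B over the 30 genes was 0.0968 in KO 1 and 0.0709 in KO 2, against 0.339 in WT 1 and 0.238 in WT 2. In WT the closer pairs crossed the preparations: 1A and 2B differed by 0.103 and 1B and 2A by 0.0829. Tpi1 and Taldo1 had the widest gaps within WT preparations, with 0.654 between WT 2A and WT 2B for Tpi1 and 0.604 between WT 1A and WT 1B for Taldo1. WT 1B and WT 2A were therefore the WT arrays that came nearest to KO 2 in most of the glycolytic and pentose phosphate genes named above.

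The size of the difference also followed the level of a gene on these arrays. Over all genes with a mean level of 9 to 10, the median difference was 0.80 for KO 1 minus WT and 0.083 for KO 2 minus WT, whereas for genes at 6 to 7 it was -0.41 and 0.017. All 30 genes of the set lay at 7 or above. The 7 genes of the set at 9 to 10, which include Tpi1, Pgam1, Pgd and Tkt, had medians of 1.28 in KO 1 and 0.35 in KO 2. In 4 of these 7 all KO arrays lay above all WT arrays, beside 14.6% of all genes at that level. At 8 to 9 the 6 genes had medians of 0.94 in KO 1 and 0.043 in KO 2, against 0.67 and 0.034 over all genes at that level. The 11 genes at 7 to 8, with Egln3, Hk2 and Ldhb among them, had medians of 0.32 in KO 1 and 0.095 in KO 2, against 0.023 and 0.019. At 10 to 11 lay Pgk1 and Pkm, with medians of 1.03 in KO 1 and 0.40 in KO 2, against 0.80 and 0.16. Above 11 lay 4 genes with medians of 0.97 in KO 1 and 0.36 in KO 2, against 0.44 and 0.096. All KO arrays were above all WT arrays in 3 of the 11 genes at 7 to 8, beside 7.69% of all genes there. At 8 to 9 this held in 2 of 6, beside 12.6%. It held in 2 of 2 at 10 to 11, beside 20.4%, and in 2 of 4 above 11, beside 18.8%. The part of the level in the differences of single genes was not tested. After quantile normalization, which gives every array the same distribution, the median of the 30 genes was 0.38 (KO 1 minus WT 0.62, KO 2 minus WT 0.21), and once every array was centred to a common median it was 0.69. The median over all genes was -0.012 and 0.039 under the same scalings, and 22 and 27 of the 30 differences were above 0. The differences of Vegfa turned sign under both, at 0.043 and 0.047, and those of Hk1 and Pdk1 under centring, at 0.0092 and 0.089.

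**Figure D4:**
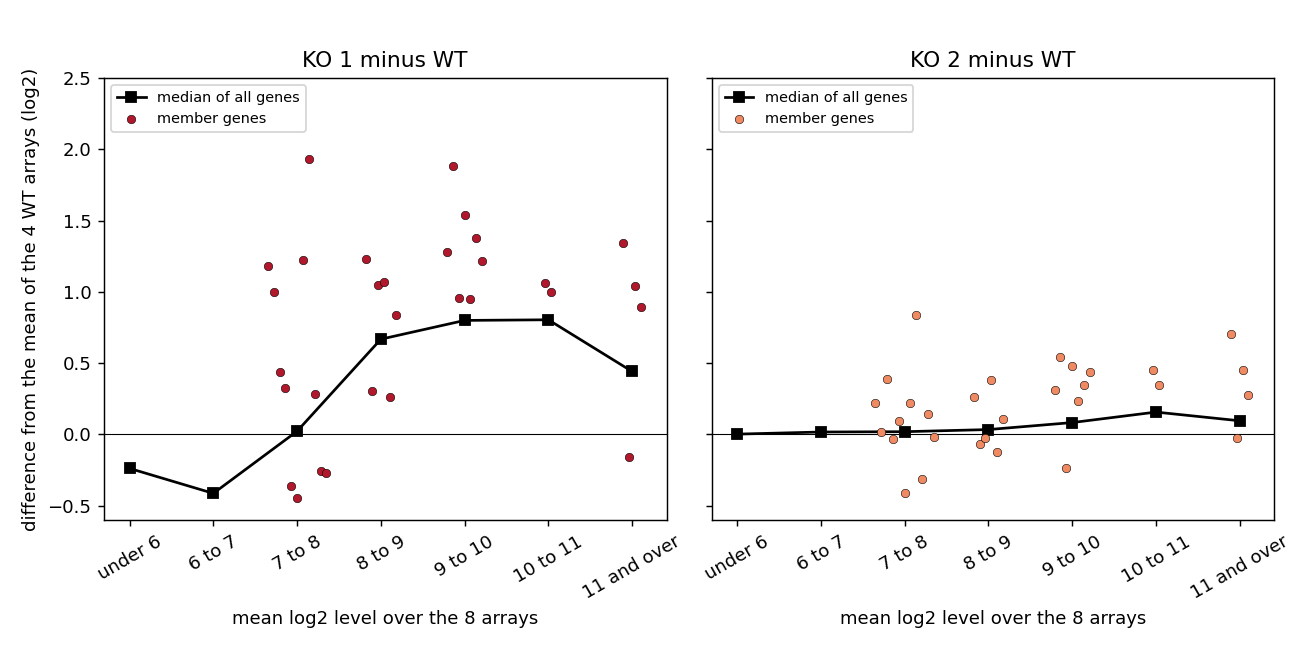
Genes are placed by their mean log2 level over the 8 arrays, and the vertical axis gives the log2 difference from the mean of the 4 WT arrays, for KO 1 on the left and KO 2 on the right. Black squares are medians of all genes in each range of level, which reach 0.80 in KO 1 and 0.16 in KO 2, and coloured points are the 30 genes.

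Promoters of these genes were read from RefSeq for the assembly GRCm38.p6, as windows from 250 bases before to 50 bases after a start site. Windows were found for 29 of the 30 genes, 42 windows in all, and none for Slc2a3. The letters ACGTG, the core bound by hypoxia-inducible factor, occurred on either strand in 18 of the 29 genes (62.1%) and in 21.8% of all 27025 genes with windows. GCGTG, the other form of the core, occurred in 72.4% of the 29 and 35.2% of all. CACGTG, the palindrome bound by Myc and related factors, which contains ACGTG on both strands, occurred in 20.7% and 8.09%. Counted over windows, of which a gene can have several, ACGTG was in 50% and 19.6%. Base composition was not matched. ACGTG was present in 10 of the 13 genes whose KO arrays all lay above WT. It was in 8 of the 15 overlapping genes with a window and not in Ldhb. GCGTG was divided otherwise. Of the 13 genes Hk2, Aldoa, Tpi1, Pgk1, Pkm and Egln3 lacked it, and of the 15 only Slc16a3 and Hif1a. Ldhb held it. A match is only a run of letters and says nothing of binding. The windows of 4 genes are printed because they span the range of the results: Egln3 and Tpi1 had the largest differences, Ldha separated the groups upward and Ldhb downward. They are given in the direction of transcription with ACGTG and its reverse complement CACGT in capitals.
Egln3, chr12:54203825-54204124, minus strand: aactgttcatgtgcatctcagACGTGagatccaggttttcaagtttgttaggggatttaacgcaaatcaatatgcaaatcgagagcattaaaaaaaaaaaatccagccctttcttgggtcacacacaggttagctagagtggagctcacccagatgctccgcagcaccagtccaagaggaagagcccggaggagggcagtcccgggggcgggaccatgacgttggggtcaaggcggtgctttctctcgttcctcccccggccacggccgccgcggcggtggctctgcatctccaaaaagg
Ldha, the upstream of its 2 windows, chr7:46845554-46845853, plus strand: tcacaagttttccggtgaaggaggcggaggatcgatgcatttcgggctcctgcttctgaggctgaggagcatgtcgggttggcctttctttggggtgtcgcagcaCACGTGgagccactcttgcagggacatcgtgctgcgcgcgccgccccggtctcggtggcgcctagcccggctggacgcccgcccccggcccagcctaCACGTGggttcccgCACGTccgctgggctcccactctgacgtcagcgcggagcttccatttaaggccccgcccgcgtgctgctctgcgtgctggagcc
Tpi1, chr6:124814109-124814408, minus strand: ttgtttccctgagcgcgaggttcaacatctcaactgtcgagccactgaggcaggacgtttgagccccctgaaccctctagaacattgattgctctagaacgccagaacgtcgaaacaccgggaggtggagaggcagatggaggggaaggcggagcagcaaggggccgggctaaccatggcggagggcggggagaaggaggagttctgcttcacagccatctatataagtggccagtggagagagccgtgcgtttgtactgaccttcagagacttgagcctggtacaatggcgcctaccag
Ldhb, chr6:142507908-142508207, minus strand: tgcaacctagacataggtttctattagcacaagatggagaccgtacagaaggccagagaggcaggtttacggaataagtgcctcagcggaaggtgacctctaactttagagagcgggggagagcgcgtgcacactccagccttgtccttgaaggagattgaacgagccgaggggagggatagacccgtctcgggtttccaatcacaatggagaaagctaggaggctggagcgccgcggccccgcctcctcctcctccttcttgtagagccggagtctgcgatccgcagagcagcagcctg
The Ldha window printed holds CACGTG at 2 places and a further CACGT nearer the start site, and the Egln3 window holds 1 match at its far end. The other Ldha window, which starts further along the gene, holds no ACGTG. The Tpi1 window printed holds neither ACGTG nor GCGTG, and the Ldhb window holds GCGTG but no ACGTG. The part of these letters in the differences was not tested.

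Further genes of the same pathways did not pass the test either. The lists were written with earlier results of these data known. Over all genes 5.65% had an unadjusted p under 0.05 with KO higher, 6.67% had all KO arrays above all WT arrays and 2.11% had all below, and the counts below are to be read against these shares. Of 33 other measured genes of glycolysis and neighbouring steps, limma called 0, with 4 at an unadjusted p under 0.05 and KO higher, and the median difference was -0.061, or 0.013 after quantile normalization. All KO arrays lay above all WT arrays in 6 of them and below in 1. The 3 with the smallest p were Got1, the cytosolic aspartate aminotransferase, at 1.42 (SE 0.38, adjusted p = 0.382), Mdh1, its partner malate dehydrogenase, at 1.10 (adjusted p = 0.568), and the phosphoglucomutase Pgm2 at 0.74. Got1 was 2.07 in KO 1 and 0.76 in KO 2 above WT, and Mdh1 1.28 in KO 1 and 0.92 in KO 2. Of 11 other pentose phosphate and NADPH genes limma called 0, with 1 at an unadjusted p under 0.05, 1 with separate groups and a median of 0.45. By preparation the median was 0.72 in KO 1 and 0.17 in KO 2, and after quantile normalization it was 0.39. Gsr, glutathione reductase, led the 11 genes at 1.06 (SE 0.33, adjusted p = 0.50). Prps1, which makes the phosphoribosyl donor for nucleotides, followed at 0.94 and the epimerase Rpe at 0.64. Of 29 other hypoxia genes limma called 0, with 4 at an unadjusted p under 0.05, 5 with separate groups and a median of 0.21. That median was 0.43 in KO 1 and 0.020 in KO 2, and 0.060 after quantile normalization. Plin2, a coat protein of lipid droplets, had levels of 9.59 and 9.47 in KO 1 and 9.21 and 9.10 in KO 2, against 8.40 and 8.53 in WT 1 and 8.28 and 8.13 in WT 2. Both KO preparations were clear of WT, and the difference of 1.01 (SE 0.25) had an adjusted p of 0.262, or 0.0336 after quantile normalization, where it was the 1 gene of that list called. Bhlhe40 and Ddit4, a transcription factor and an inhibitor of mTOR signalling, differed by 0.91 and 0.91. Of 12 regulators of glucose use limma called 0, with 1 at an unadjusted p under 0.05 and a median of 0.21. By preparation the median was 0.51 in KO 1 and 0.050 in KO 2, and after quantile normalization it was 0.031. Rheb, Myc and Mlx had the smallest p, with differences of 1.05, 0.74 and 0.59. Rheb was 1.87 in KO 1 and 0.23 in KO 2 above WT and Myc 1.34 in KO 1 and 0.14 in KO 2, and 0 of the 12 separated the groups.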

How the data were processed

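Total RNA of stimulated FoxP3+ Tregs was measured on 8 Affymetrix whole-transcript arrays. The deposited values are log2 expression levels per probe set, which the authors obtained in Partek by RMA according to their labels (per the submitters' processing notes); tool versions and filters: not given in the sources used here. Such processing usually corrects background, normalizes between arrays and summarises probes, and the remaining difference in spread between arrays can widen or narrow differences. The table holds 28768 probe sets with 0 values missing and 0 columns unused. Platform annotation gave 1 symbol to 21771 sets, several to 1557 and none to 5440, and 0 symbols were updated through a RefSeq gene table of GRCm38.p6. Sets with 1 symbol entered the test, and the set with the highest mean stood for each of the 999 genes with several, leaving 19937 genes.

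The test of KO against WT was limma's (version 3.58.1, R 4.3.3; lmFit, eBayes with a variance trend), with preparation as a random block (duplicateCorrelation, 0.617), 12.8 degrees of freedom and Benjamini-Hochberg adjustment over all genes at 0.05, two-sided. A fit with 1 mean per preparation (12.4 degrees of freedom) compared KO 1 with KO 2 and WT 1 with WT 2. The 2 most alike arrays differed by a root mean square of 0.169, so each was kept as a sample. The code was tested on simulated data. Values in every array are given for the 2 genes with the largest difference in each role and for Slc2a1, Hk2, Ldha and Hif1a; from each further list the 3 genes with the smallest p are named. Members and lists were chosen with earlier results of these data known. Alternatives changed scaling, probe sets, blocks, variance models, filters and arrays. The number of arrays limits the precision.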

Additional observations from a re-analysis of the deposited data

How the results depend on the processing

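The count of genes called over the whole array was 27, 24 higher and 3 lower. It was 157 after quantile normalization (121 higher and 36 lower), 14 after median centring, 113 with no block, 52 on preparation means, 66 with array weights and 2483 with array SD as a covariate. With 1 array left out it was 15 to 57: 15 without WT 2A, 16 without KO 1B or WT 2B, 55 without KO 2B and 57 without WT 1B. It was 12 without WT 1 and 0 without WT 2, where limma gave 200 genes at an unadjusted p under 0.05. Without KO 1 it was 1465, or 144 with no random block, and 1672 after quantile normalization. Without KO 2 it was 16900, or 13378 with no random block, and 12196 after quantile normalization. With the random block the estimated correlation within preparations was negative without KO 1 and without KO 2, -0.63 and -0.64. It was -0.37 with array SD as a covariate. A negative value narrows the SE of KO minus WT. Leaving out a KO preparation with no random block or with quantile normalization was chosen after seeing the data. Of the 30 genes 0 were called. That became 1 after quantile normalization, 15 with the SD covariate, 5 with same-numbered preparations as a replicate block, 12 without KO 1 (1 with no random block, 13 after quantile normalization) and 29 without KO 2 (23 with no random block, 24 after quantile normalization); it stayed 0 under each other alternative, and in leaving out each array. The 14 genes with separate groups (8.78% of all genes) became 16 after quantile normalization (12.1%) and 10 after median centring (7.93%). They became 15 without KO 1 (14.3%), or 19 after quantile normalization (18.9%), and 27 without KO 2 (76.8%), or 24 after quantile normalization (58.4%). When 1 array was left out they were 14 to 19, with 19 without WT 1B (21.3%) and 18 without KO 2B (18.8%). The median of the pentose phosphate genes was 0.35 without KO 1 and 1.22 without KO 2, and that of the hypoxia genes 0.13 without KO 1, 0.56 without KO 2 and 0.15 after quantile normalization. Of KO 1 minus KO 2, 21 genes were called, 11 after quantile normalization, and 3 to 26 when 1 array was left out.

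Same-numbered preparations of KO and WT are not tied by the labels. With the replicate block, 677 genes were called over the whole array and 5 of the 30 (Aldoa, Tpi1, Pgam1, Egln3 and Pgd). Deviations of KO 1 from the KO mean correlated at 0.42 with those of WT 1, but those of array KO 1A correlated at -0.69 with WT 1A and at 0.76 with WT 1B.

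Over 22 alternatives 19 of the 30 genes kept their sign. In genes with separate groups, leaving out arrays could not change the sign. After quantile normalization Pfkm was -0.00234, Pfkfb3 -0.054, Vegfa 0.043 and Pgls -0.13. After median centring Hk1 was 0.00916, Pdk1 0.089 and Vegfa 0.047. Hk1 was 0.22 as a mean of probe sets. With the SD covariate Pfkl was -0.00761, Pfkp -0.30, Pfkm -0.017, Slc16a1 -0.088, Pfkfb3 -0.11, Pfkfb4 0.12, Bnip3 0.00782, Vegfa 0.17 and Pgls -0.14. Without KO 1 Pfkp was -0.24, Pfkm -0.029, Slc16a1 -0.025, Pfkfb3 -0.067, Pfkfb4 0.095, Vegfa 0.15 and Pgls -0.13. Pdk1 was 0.29 without KO 2 and 0.074 without WT 1, Vegfa 0.030 without WT 2, and leaving out 1 array gave -0.12 to 0.10 for Pdk1 and -0.15 to 0.00179 for Vegfa. The causes were not tested.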

Other observations

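Some probe sets of listed genes fell outside the rule because the annotation gives them several symbols. Gapdh, which oxidises glyceraldehyde phosphate, had 25 such sets, with log2 levels between 12.26 and 13.27. All 25 had a KO minus WT difference above 0, from 0.049 to 0.22 with a median of 0.17. In 23 all KO arrays lay above all WT arrays, beside 18.8% of all genes with a mean level of 11 or more. The 25 sets share the Gapdh symbol and may read the same transcripts, so they are not separate results. Hk1 shared 16 sets with Rpl17, a gene of the large ribosomal subunit. Their differences were between -0.11 and -0.00852, and none separated the groups. The other Hk1 set had levels of 9.58 and 9.53 in KO 1 and 8.85 and 8.87 in KO 2, against 8.66 and 8.81 in WT 1 and 8.75 and 8.46 in WT 2. Bnip3 had a further set with a difference of -0.34, beside -0.14 in the set used.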
